A study of Mus musculus with 6 samples.

Results

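PARP family ADP-ribosyltransferases were examined as 10 genes, *Parp1*, *Parp2*, *Parp3*, *Parp4*, *Parp6*, *Parp8*, *Parp9*, *Parp10*, *Parp12* and *Parp14*, chosen by name out of the 54446 genes listed for each liver library. All 10 were found by symbol, and all 10 passed the filter on low counts that left 16734 genes for testing. RNA was sequenced from whole liver of male mice of 32 weeks of age on a C57BL/6 background (C57BL/6J in the study's methods), fed standard chow, in 2 groups of 3 mice with 1 library per mouse. WT mice carried no modified allele, and Fmo5-/- mice, a knockout line made on that background, lacked flavin-containing monooxygenase 5 (FMO5) outside the liver as well, so that effects within the liver and effects from elsewhere in the body cannot be told apart. P-values measure the spread between these mice. *Fmo5* itself, the check of the genotype, had normalized counts of 39808, 37405 and 30240 in WT mice and of 1071, 1102 and 1194 in Fmo5-/- mice.

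ADP-ribosyltransferases take ADP-ribose from NAD+ and attach it to proteins or nucleic acids. PARP1 and PARP2 build long poly(ADP-ribose) chains at DNA breaks, whereas most other members attach a single ADP-ribose, and PARP9, PARP10, PARP12 and PARP14 are known as products of interferon-inducible genes with roles in antiviral defence. These 4 are called interferon-inducible below, and the other 6 constitutive. The study compared the livers of the 2 genotypes to look for what underlies the leanness of Fmo5-/- mice, and it singled out *Parp10* and *Parp14* on these same libraries, so their direction here is not independent evidence.

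For 3 of the 4 interferon-inducible members the lowest Fmo5-/- mouse lay above the highest WT mouse, and 1 of them, *Parp14*, passed the threshold of an adjusted p under 0.05 in the quasi-likelihood test of edgeR. Of the 6 constitutive members, 1 (*Parp8*) lay without overlap higher and 1 (*Parp6*) without overlap lower in Fmo5-/- mice, and 0 passed the threshold in edgeR or in DESeq2. An unadjusted p under 0.05 in edgeR was reached by 3 of the 4 interferon-inducible members (*Parp10*, *Parp12* and *Parp14*) and by 2 of the 6 constitutive members (*Parp4* and *Parp8*), all higher in Fmo5-/- mice. The background is that 0.675% of all tested genes were called higher and 0.693% lower in Fmo5-/- mice, that 13.9% lay without overlap higher and 13.5% without overlap lower, and that 11.6% had an unadjusted p under 0.05 and were higher and 10.2% and were lower. Among the 7819 tested genes with a mean normalized count at or above 500, as 9 of the 10 members had, 0.55% were called higher and 1.06% lower, 9.39% lay without overlap higher and 21.9% lower, 7.62% had an unadjusted p under 0.05 and were higher and 17.6% and were lower, and the median log2 fold change was -0.06. The median log2 fold change, Fmo5-/- over WT, was 0.36 for the interferon-inducible members (range -0.03 to 0.62) and 0.16 for the constitutive members (range -0.19 to 0.65), beside a median of 0.0058 over all tested genes. DESeq2, which called 4.39% of the same genes higher and 3.92% lower, called 2 of the 4 interferon-inducible members, *Parp14* and *Parp10*. In bulk liver, more cells of a type that expresses a gene and more RNA of that gene per cell cannot be told apart.

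**Figure D1:**
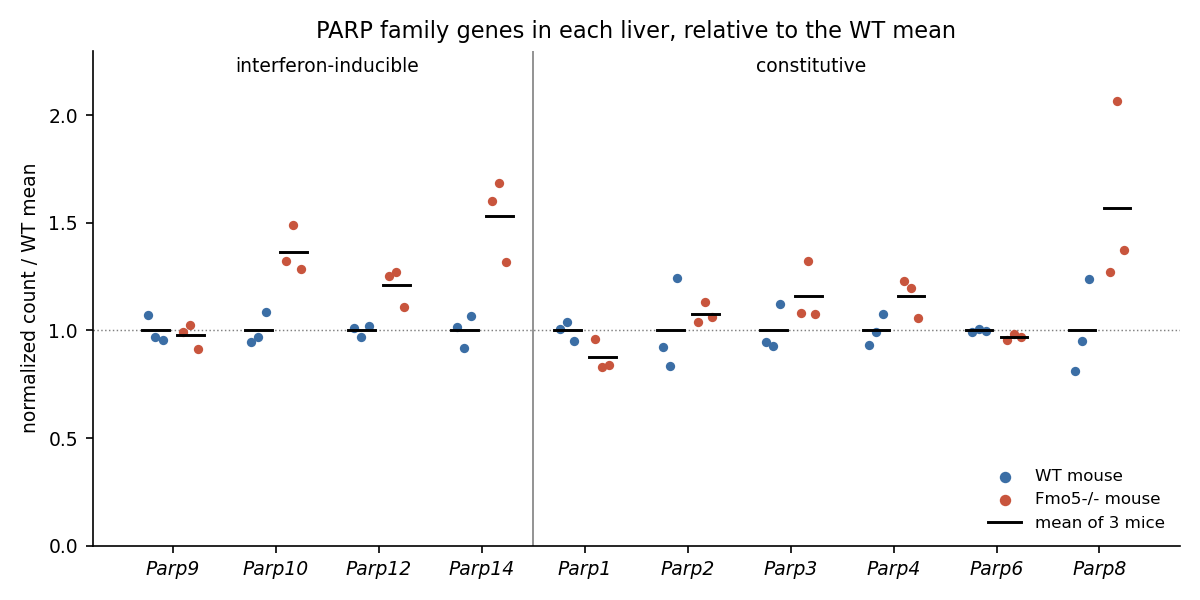
Normalized count of each of the 10 genes in each mouse, divided by the mean of the 3 WT mice; points are mice and black bars are means of 3. *Parp10*, *Parp12* and *Parp14* lie higher in all 3 Fmo5-/- mice, *Parp9* does not, and the widest spread among Fmo5-/- mice is that of *Parp8*, from 1.27 to 2.06 times the WT mean.

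*Parp14*, the gene of a large macrodomain-containing mono-ADP-ribosyltransferase that is a cofactor of STAT6, lies on the reverse strand at chr16:35832874-35871544 (mm10). Its normalized counts, that is counts scaled to a common library size, were 1633, 1473 and 1711 in WT mice and 2570, 2703 and 2116 in Fmo5-/- mice. The genotypes did not overlap, and replicate 3 was the lowest of the Fmo5-/- group. Expression was 1.53-fold higher in Fmo5-/- mice (95% confidence interval 1.30 to 1.81), a log2 fold change of 0.62 with a standard error of 0.11 and an adjusted p of 0.0378 in edgeR. The call was lost when any library other than Fmo5-/- replicate 3 was left out: the adjusted p was 0.109, 0.0852 and 0.0519 without WT replicates 1, 2 and 3, and 0.121 and 0.0854 without Fmo5-/- replicates 1 and 2. It was 0.00721 without Fmo5-/- replicate 3, and over these 6 fits the log2 fold change stayed between 0.55 and 0.71.

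*Parp10* encodes a mono-ADP-ribosyltransferase with ubiquitin-interacting motifs, and lies on the reverse strand at chr15:76231174-76243441. Its normalized counts were 1057, 1080 and 1209 in WT mice and 1475, 1660 and 1434 in Fmo5-/- mice, again without overlap. The fold difference was 1.37 (95% confidence interval 1.18 to 1.57), or 0.45 ± 0.09 on the log2 scale (SE, n = 3 per genotype), with an adjusted p of 0.0524 in edgeR, just short of the threshold, and of 0.00489 in DESeq2. In edgeR the threshold was passed when scaling left out the 20 most abundant genes (adjusted p 0.0465), with no filter on low counts (0.00129), with the reads of the first strand (0.0436) and without Fmo5-/- replicate 3 (0.0385). Exons of *Parp10* share 205 bases with exons of *Plec* on the same strand, and reads lying there were counted for neither gene.

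*Parp12*, whose product is a zinc-finger protein of stress granules and the Golgi, lies on the reverse strand at chr6:39086410-39118349. Normalized counts were 1574, 1505 and 1588 in WT mice and 1952, 1976 and 1724 in Fmo5-/- mice. The groups did not overlap, and the difference of 0.28 ± 0.08 on the log2 scale (SE, n = 3 per genotype) had an adjusted p of 0.102 in edgeR. The threshold was not passed under any of the 14 alternative settings, for which the adjusted p ranged from 0.0734 to 0.271.

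*Parp9* encodes a macrodomain protein that acts in a complex with the ubiquitin ligase DTX3L, and its gene and *Dtx3l* start head to head, overlapping by 682 bases. It lies on the forward strand at chr16:35938470-35972605, with its start 66925 bases beyond the start of *Parp14*, which is read in the opposite direction. Normalized counts of *Parp9* were 3087, 2802 and 2762 in WT mice and 2867, 2956 and 2637 in Fmo5-/- mice, and the groups overlapped. The log2 fold change was -0.03, with a 95% confidence interval of -0.22 to 0.15, and its adjusted p in edgeR was 0.862. *Dtx3l* likewise overlapped between genotypes, with 2542, 2554 and 2234 normalized counts in WT mice and 2383, 2679 and 2158 in Fmo5-/- mice (log2 fold change -0.02, adjusted p 0.923). Both signs turned under some settings. The genes share 458 exon bases on opposite strands, and because the reads of both strands were counted together, reads in those bases were left out: counts on single strands held 5.33% more reads for *Parp9* and 6.27% more for *Dtx3l*.

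The neighbours *Parp14* and *Parp9* were therefore set side by side within each library, a comparison chosen after their values were seen and given without a test. The level of *Parp14* per length (CPM per kb of exon, CPM being counts scaled to a fixed library total) was 0.277, 0.275 and 0.324 times that of *Parp9* in WT mice and 0.469, 0.479 and 0.420 times in Fmo5-/- mice. The ratio of *Dtx3l* to *Parp9* on the same scale was 0.722 ± 0.047 (SD, n = 3) in WT mice and 0.725 ± 0.040 (SD, n = 3) in Fmo5-/- mice. The first ratio did not overlap between genotypes, whereas the second covered nearly the same range in both.

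Among the constitutive members, *Parp1*, the main DNA-damage poly(ADP-ribose) polymerase (forward strand, chr1:180568924-180601254), had normalized counts of 2107, 2172 and 1988 in WT mice and 2009, 1732 and 1752 in Fmo5-/- mice. Fmo5-/- replicate 1 lay within the WT range and the others below it. The log2 fold change was -0.19 (95% confidence interval -0.38 to 0.0039), with an adjusted p of 0.239 in edgeR. *Parp2*, the second DNA-break sensor (forward strand, chr14:50807841-50821301), had 518, 468 and 697 in WT mice and 582, 636 and 596 in Fmo5-/- mice, so that the WT mice spanned the whole Fmo5-/- range. Its log2 fold change was 0.11 (95% confidence interval -0.22 to 0.43; adjusted p 0.713). This value was -0.0050 without WT replicate 2 and 0.30 without WT replicate 3. *Parp3*, a mono-ADP-ribosyltransferase of double-strand break repair (reverse strand, chr9:106470322-106476949), had 2155, 2120 and 2565 in WT mice and 2470, 3012 and 2456 in Fmo5-/- mice. WT replicate 3 lay above 2 of the Fmo5-/- mice, and the log2 fold change of 0.21 (95% confidence interval -0.04 to 0.46) had an adjusted p of 0.302 and was 0.11 without Fmo5-/- replicate 2.

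*Parp4* encodes the PARP of vault particles (forward strand, chr14:56575619-56659794), and its normalized counts were 775, 825 and 895 in WT mice and 1023, 995 and 880 in Fmo5-/- mice. Fmo5-/- replicate 3 fell below the highest WT mouse. The log2 fold change was 0.22 (95% confidence interval 0.0054 to 0.43) with an adjusted p of 0.218 in edgeR. The size of this value depended on the strand: *Parp4* shares 335 exon bases with the antisense transcript *Gm16573*, its counts on single strands held 28.9% more reads, and the log2 fold change was 0.18 and 0.07 from the first and second strand and 0.11 from their sum. Which reads on either strand came from *Gm16573* cannot be told in an unstranded library. *Parp6*, a mono-ADP-ribosyltransferase best known from neurons (forward strand, chr9:59617284-59650285), had 573, 582 and 577 in WT mice and 551, 567 and 561 in Fmo5-/- mice. All 3 Fmo5-/- mice were below all 3 WT mice, but by a log2 fold change of only -0.05 (95% confidence interval -0.23 to 0.14; adjusted p 0.801), whose sign turned under some settings.

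*Parp8*, a less studied mono-ADP-ribosyltransferase (reverse strand, chr13:116854820-117025537), was the least abundant member and the only one with a mean normalized count under 500. Its raw counts were 45, 50 and 71 in WT mice and 80, 132 and 82 in Fmo5-/- mice, which are normalized counts of 47.7, 55.8 and 72.6 against 74.5, 121 and 80.5. The groups did not overlap, by a small margin between WT replicate 3 and Fmo5-/- replicate 1, and Fmo5-/- replicate 2 stood highest. Its log2 fold change of 0.65 was the largest among the 10 members, but with a standard error of 0.26 and a 95% confidence interval of 0.06 to 1.23 its adjusted p in edgeR was 0.189, and without Fmo5-/- replicate 2 the log2 fold change was 0.40. It was 0.84 from the reads of the first strand and 0.44 from those of the second.

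**Figure D2:**
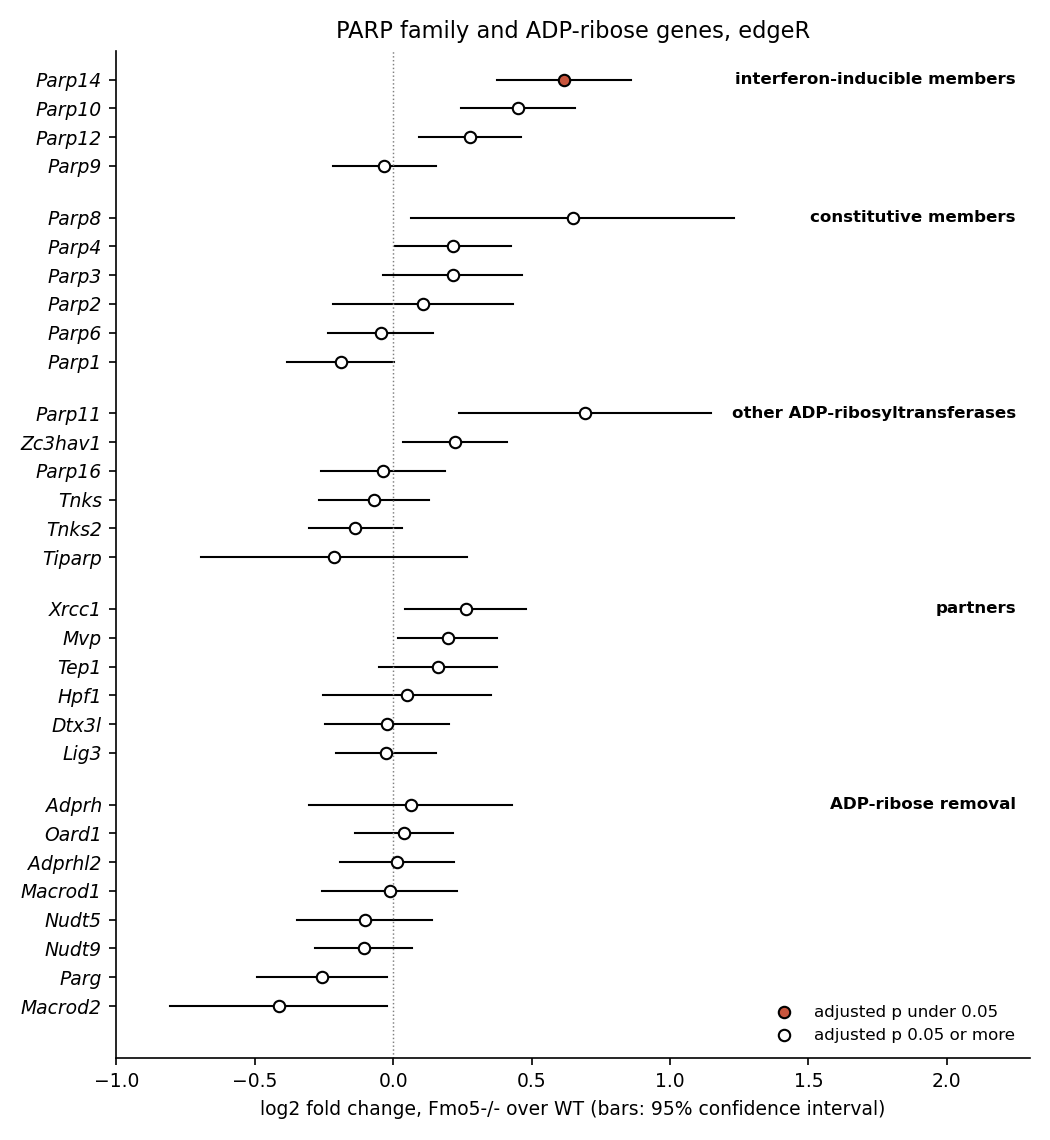
Log2 fold change, Fmo5-/- over WT, with its 95% confidence interval from edgeR, for the 10 members, 6 other ADP-ribosyltransferases, 6 partners and 8 tested genes of ADP-ribose removal; filled points have an adjusted p under 0.05. Only *Parp14*, at 0.62, is filled, and the intervals of *Parp8* and *Parp11* are the widest among the genes with a log2 fold change above 0.6.

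Per length of exon, the members spanned a wide range of levels in liver. In WT mice *Parp3* (12.6 ± 1.4 CPM per kb; SD, n = 3) and *Parp9* (12.1 ± 0.75) had the highest levels and overlapped. *Parp1* (8.09 ± 0.36) and *Parp12* (7.98 ± 0.23) followed and also overlapped, and *Parp10* (5.35 ± 0.39) lay below both. *Parp14* (3.54 ± 0.27), *Parp2* (3.17 ± 0.68) and *Parp4* (2.61 ± 0.19) formed a run in which each overlapped the next. The level of *Parp4* leaves out reads in exon bases shared with *Gm16573*. Its counts on single strands held 28.9% more reads, so its place next to *Parp2* may depend on how reads were counted. *Parp6* (1.52 ± 0.013) and *Parp8* (0.135 ± 0.029) were lowest, each without overlap with the member above it.

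In Fmo5-/- mice *Parp12* (9.66 ± 0.71 CPM per kb; SD, n = 3) and *Parp10* (7.30 ± 0.58) stood above *Parp1* (7.09 ± 0.60) in the order, although the ranges of *Parp10* and *Parp1* overlapped. *Parp14*, at 5.42 ± 0.68, no longer overlapped *Parp2*, at 3.42 ± 0.16. The first 2 places and the last 5 were held by the same genes in both genotypes. The interferon-inducible members together held 54.3%, 52.4% and 51.7% of the normalized counts of all 10 members in WT mice and 56.9%, 56.8% and 55.6% in Fmo5-/- mice, without overlap.

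**Figure D3:**
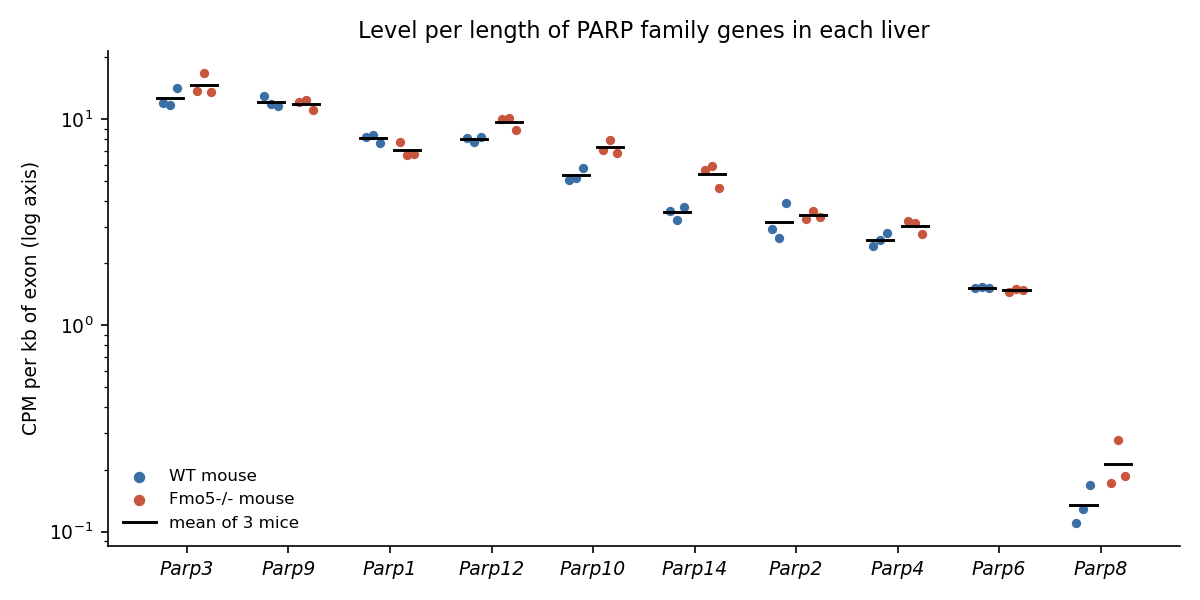
Level per length, in CPM per kb of exon on a log axis, of the 10 members in each mouse, ordered by the WT mean; points are mice and black bars are means of 3. Levels run from 12.6 for *Parp3* to 0.135 for *Parp8* in WT mice, and *Parp14* separates from *Parp2* in the Fmo5-/- mice.

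Because interferon acts on its target genes through short promoter elements, the RefSeq promoter windows (GRCm38.p6, 250 bases before to 50 after the start) were searched on both strands for the core of the interferon-stimulated response element (ISRE), GAAANNGAAA, which IRF-containing complexes bind, and for the gamma-activated site (GAS), TTCNNNGAA, an element of interferon-gamma target genes. Of 32851 mouse promoter windows, 3.44% held the ISRE core and 8.3% the GAS. Windows were at hand for *Parp12* and the 6 constitutive members and not for *Parp9*, *Parp10* and *Parp14*. Of the 7 windows, 1 held an ISRE core, that of the constitutive member *Parp4*, where 2 matches overlap at 150 and 144 bases before the start, and 0 held a GAS. That of *Parp12* held neither. Among the 5 other ADP-ribosyltransferase genes with a window, *Parp11* held in the first of its windows an ISRE core that lies 44 bases before the start of transcription and overlaps a GAS, and *Parp16* held a GAS. Among the 5 partner genes with a window, *Xrcc1* held an ISRE core, 250 bases before its start. Of 14 genes of interferon signalling with a window, 3 held an ISRE core and 4 a GAS. Shown 5′ to 3′ on the strand of the gene, with ISRE cores in capitals, are the window with overlapping cores, *Parp4* (chr14:56575369-56575668, forward strand), that of the interferon-inducible member, *Parp12* (chr6:39118300-39118599, reverse strand), and that of *Parp11* (chr6:127446590-127446889, forward strand).
Parp4: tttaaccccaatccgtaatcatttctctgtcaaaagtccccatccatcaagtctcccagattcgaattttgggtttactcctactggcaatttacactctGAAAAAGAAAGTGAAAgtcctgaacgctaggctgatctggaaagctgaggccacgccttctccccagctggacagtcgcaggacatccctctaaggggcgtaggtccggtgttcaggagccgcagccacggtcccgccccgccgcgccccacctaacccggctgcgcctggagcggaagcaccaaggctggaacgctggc
Parp12: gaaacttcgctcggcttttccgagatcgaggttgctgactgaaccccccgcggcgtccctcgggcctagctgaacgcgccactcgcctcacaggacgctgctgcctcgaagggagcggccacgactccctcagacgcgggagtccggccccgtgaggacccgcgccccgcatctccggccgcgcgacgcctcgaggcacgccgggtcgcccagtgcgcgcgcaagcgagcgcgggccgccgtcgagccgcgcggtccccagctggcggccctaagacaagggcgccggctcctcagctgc
Parp11: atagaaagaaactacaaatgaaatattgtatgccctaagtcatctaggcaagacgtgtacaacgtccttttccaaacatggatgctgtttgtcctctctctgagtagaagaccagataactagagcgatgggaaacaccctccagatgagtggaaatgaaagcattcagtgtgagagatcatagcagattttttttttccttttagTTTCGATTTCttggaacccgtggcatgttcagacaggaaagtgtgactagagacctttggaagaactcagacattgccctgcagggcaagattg
A match is a description of letters and not a bound site. For scale, 17 of the 32 genes with a window in a list of 41 interferon-stimulated genes held an ISRE core and 9 of the 32 a GAS.

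The 6 other ADP-ribosyltransferases of the family that were measured included 0 called genes in edgeR, 2 with an unadjusted p under 0.05 (*Parp11* and *Zc3hav1*), and 1 called by DESeq2. *Parp11*, a mono-ADP-ribosyltransferase reported to act on the interferon receptor, had normalized counts of 281, 232 and 249 in WT mice and 350, 552 and 331 in Fmo5-/- mice. The groups did not overlap and Fmo5-/- replicate 2 stood far above the others. The log2 fold change was 0.69 ± 0.20 (SE, n = 3 per genotype), with an adjusted p of 0.0985 in edgeR and 0.0202 in DESeq2. Without Fmo5-/- replicate 2 the log2 fold change was 0.42 and the adjusted p in edgeR 0.221. *Zc3hav1*, the gene of the zinc-finger antiviral protein (PARP13), had 2551, 2608 and 2420 in WT mice and 3053, 3100 and 2697 in Fmo5-/- mice, without overlap, and a log2 fold change of 0.22 with an adjusted p of 0.162. The tankyrase gene *Tnks2* was without overlap lower (log2 fold change -0.14, adjusted p 0.322), and *Tiparp*, *Parp16* and *Tnks* overlapped between genotypes. Among all tested genes, 13.9% lay without overlap higher and 13.5% lower, and 11.6% had an unadjusted p under 0.05 in edgeR and were higher.

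Of 6 genes of partners of the members, 0 were called in edgeR or in DESeq2, and 2 had an unadjusted p under 0.05. These were *Xrcc1*, whose product is the repair scaffold recruited by poly(ADP-ribose) (765, 710 and 873 against 940, 894 and 982; log2 fold change 0.26, adjusted p 0.161), and *Mvp*, of the major vault protein that carries PARP4 (2481, 2336 and 2493 against 2878, 2916 and 2587; 0.20, adjusted p 0.191). Both lay without overlap higher in Fmo5-/- mice, as did 13.9% of all tested genes, and 11.6% of these had an unadjusted p under 0.05 in edgeR and were higher. *Tep1*, *Hpf1*, *Lig3* and *Dtx3l* overlapped.

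Of 9 genes of ADP-ribose removal, 8 passed the filter on low counts and 0 of these were called in edgeR or in DESeq2, with 2 at an unadjusted p under 0.05, both lower. *Parg*, of the hydrolase that takes poly(ADP-ribose) chains apart, had 819, 928 and 733 normalized counts in WT mice and 713, 652 and 712 in Fmo5-/- mice (log2 fold change -0.26, adjusted p 0.193, and -0.16 without WT replicate 2). *Macrod2*, of a mono-ADP-ribosyl hydrolase, had 182, 189 and 169 in WT mice and 141, 108 and 156 in Fmo5-/- mice (-0.41, adjusted p 0.207). Both were without overlap lower, whereas *Adprh*, *Adprhl2*, *Macrod1*, *Oard1*, *Nudt5* and *Nudt9* overlapped. Among all tested genes, 13.5% lay without overlap lower, and 10.2% had an unadjusted p under 0.05 in edgeR and were lower. With a mean at or above 500 these shares were 21.9% and 17.6%. *Adprhl1*, with 0 to 3.07 normalized counts, did not pass the filter.

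Of 16 genes of interferon receptors, kinases, transcription factors and feedback regulators, 2 were called, both higher in Fmo5-/- mice. *Irf7*, of the master regulator of type I interferon genes, had 1216, 1227 and 1442 normalized counts in WT mice and 2213, 2280 and 2078 in Fmo5-/- mice (log2 fold change 0.76, adjusted p 0.00871), and was called under all 14 alternative settings. *Usp18*, of the deubiquitinase-like protein that damps the interferon receptor, had 251, 293 and 334 in WT mice and 560, 615 and 546 in Fmo5-/- mice (0.97, adjusted p 0.0133); its adjusted p was 0.0600 without Fmo5-/- replicate 1, the single setting of 13 under which the call was lost.

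Of the 41 interferon-stimulated genes, 40 had a higher mean in Fmo5-/- mice and 8 were called, namely *Ifit1*, *Ifi44*, *Oas1a*, *Rtp4*, *Herc6*, *Zbp1*, *Gbp3* and *Gbp7*, with log2 fold changes from 0.52 for *Herc6* to 1.70 for *Zbp1*. The count was 27 in DESeq2, and in edgeR it was 1, 2 and 2 without WT replicates 1, 2 and 3, and 0, 6 and 21 without Fmo5-/- replicates 1, 2 and 3. The median log2 fold change of the list was 0.75, above the 0.36 of the interferon-inducible members. *Parp14*, at 0.62, lay below this median, as did the other 3. The summed level of the list was 1089 to 1131 CPM in WT mice and 1611, 1865 and 1398 CPM in Fmo5-/- mice. Of the called genes, *Ifi44*, *Gbp3* and *Gbp7* lie on chromosome 3, the chromosome of *Fmo5*. *Gbp2* and *Adar* of the list, not called in edgeR, lie there too. The part of this location in their values was not tested.

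Summed levels of Kupffer cell, T and NK cell and neutrophil markers also lay without overlap higher in Fmo5-/- mice, with 1 single marker of these lists called in edgeR. The 10 Kupffer cell markers, all higher in mean in Fmo5-/- mice and 9 of them without overlap, summed to 270 to 320 CPM in WT mice and to 743, 770 and 421 CPM in Fmo5-/- mice. In edgeR 1 of them was called, *Clec4f*, at a log2 fold change of 0.70, and in DESeq2 9 were. Without WT replicates 1 and 2 or Fmo5-/- replicates 1 and 2, 0 were called, and without Fmo5-/- replicate 3 all 10. The 8 T and NK cell markers, 5 without overlap, summed to 4.23 to 5.82 CPM in WT mice and to 10.8, 25.9 and 8.05 CPM in Fmo5-/- mice, with 0 called in edgeR, 6 at an unadjusted p under 0.05 and 4 called in DESeq2. In edgeR 1 was called without Fmo5-/- replicate 2 and 4 without Fmo5-/- replicate 3, and the median log2 fold change of the list, 1.56, was 0.99 without Fmo5-/- replicate 2. *Cd3g*, *Cd4* and *Ncr1* overlapped between genotypes, and the NK cell marker *Ncr1* had only 1 to 12 counts per library. The defining markers of the tissue, 6 hepatocyte genes, summed to between 106832 and 140218 CPM in WT mice and between 109500 and 136373 CPM in Fmo5-/- mice. Most of this sum was *Alb*, with 83734 to 110752 CPM in WT mice and 84021 to 110282 CPM in Fmo5-/- mice. Each of the 6 genes overlapped between genotypes. The neutrophil sum was 0.775 to 2.32 CPM in WT mice and at or above 2.37 CPM in each Fmo5-/- mouse. It came mostly from *S100a8* and *S100a9*, the 2 of its 4 genes that passed the filter on low counts. *Ly6g* and *Retnlg* did not pass it. *S100a8* and *S100a9* lie on chromosome 3 with *Fmo5*, as does the Kupffer cell marker *Cd5l*, and the part of this location was not tested. The sums of B cells, plasmacytoid dendritic, endothelial, stellate and biliary cells overlapped between genotypes. The part of Kupffer, T and NK cells in the levels of *Parp10*, *Parp12*, *Parp14*, *Parp8* and *Parp11* was not tested.

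**Figure D4:**
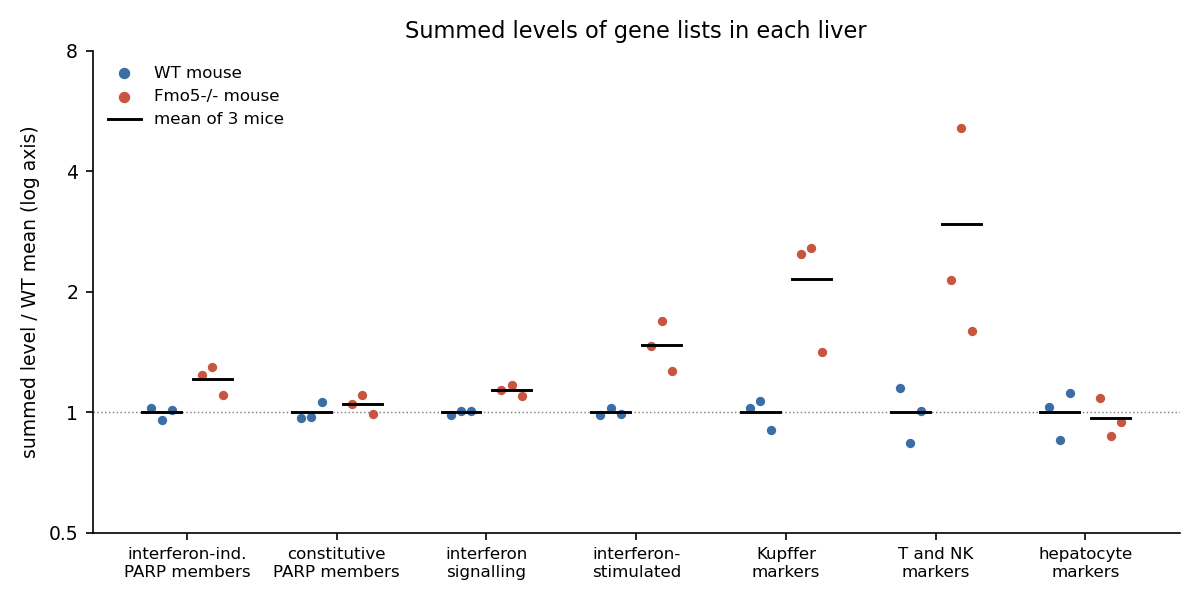
Summed level of each gene list in each mouse divided by the mean of the 3 WT mice, on a log axis; points are mice and black bars are means of 3. The sum of the interferon-inducible members reached 1.24, 1.30 and 1.10 times the WT mean in Fmo5-/- mice and that of the constitutive members 1.05, 1.10 and 0.989 times, while Kupffer markers reached 2.49, 2.58 and 1.41 times.

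For each interferon-inducible member, the 3 genes closest in pattern were taken by the root mean square (RMS) difference of log2 CPM, centred on its mean over the 6 libraries, among 7818 genes whose mean normalized count reached 500. *Parp14* was closest to *Coro7* (RMS 0.073), *Dennd4b* (0.079) and *Ehbp1l1* (0.079), and *Parp10* to *Abcc5* (0.044), *Dennd4b* (0.049) and *Tap2* (0.049). *Parp12* was closest to *Zfp777* (0.027), *Sfswap* (0.031) and *Trim26* (0.032). *Parp9*, the member that overlapped between genotypes, was closest to *Chmp4b* (0.025), *Bckdhb* (0.025) and *Mtmr14* (0.027). *Dennd4b* was the one gene named for 2 members. The 6 libraries fall in 2 groups, so this measure and the difference between genotypes rest on the same points.

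**Figure D5:**
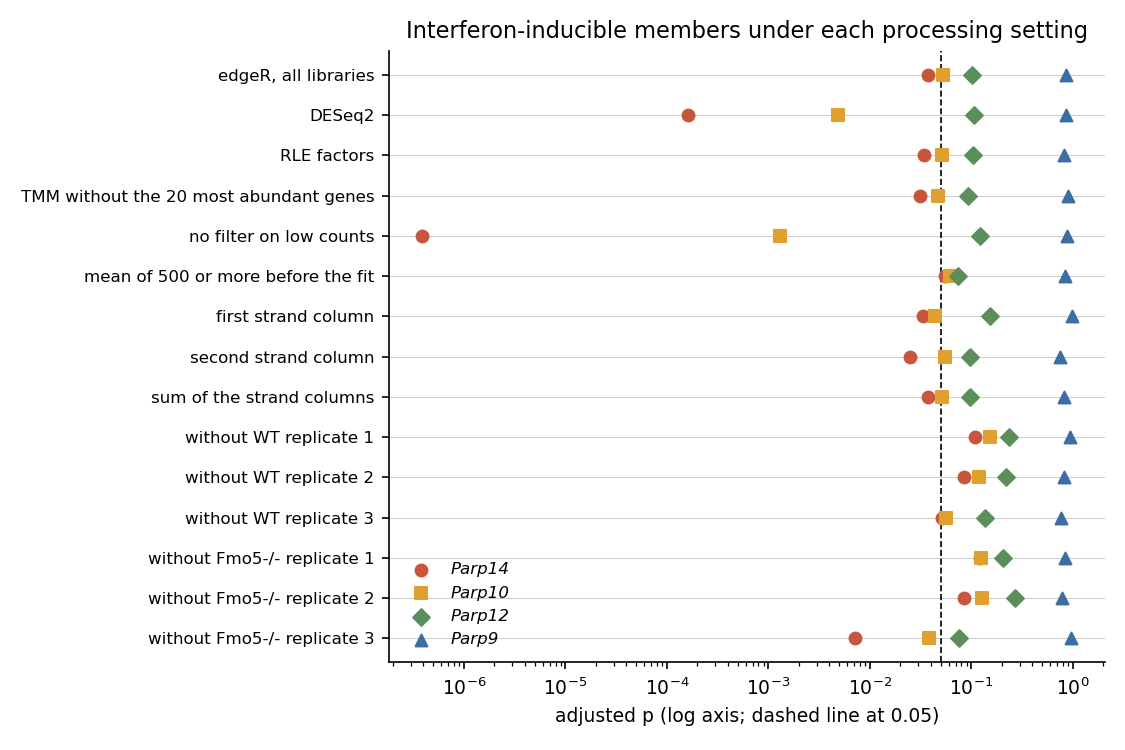
Adjusted p, on a log axis, of the 4 interferon-inducible members in edgeR with all libraries and under each of 14 alternative settings; the dashed line is at 0.05. *Parp14* lies left of the line with all libraries and in 8 of the 14 alternatives, *Parp10* in 5, and *Parp12* and *Parp9* in 0; without Fmo5-/- replicate 1 the point of *Parp14* is hidden behind that of *Parp10*.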

How the data were processed

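RNA was isolated from 6 frozen livers, and mRNA libraries were sequenced as single reads of 75 bases. Per the study's methods, the authors clipped adapters, mapped reads to mm10 with STAR 2.6.0c and compared genotypes with DESeq2 1.22.2. The deposited count files give, per gene, raw counts of both strands and of each strand alone (other columns of the deposited files, which also hold reads in exons of genes that overlap on opposite strands). The deposited comparison table holds a normalized signal per library, that is the authors' counts divided by a size factor. It was used for symbols and for a check of the counts, which gave 1 constant ratio per library to within 0.005%. Its columns of fold changes, standard errors, test statistics and p-values were not used.

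Libraries were grouped by genotype label, and replicate numbers follow no pairing. Libraries held 67753857 to 75632821 reads, and 66.2% to 69.2% of these were counts on genes. Reads that were unmapped, mapped to several places or fell in no gene or in several genes entered neither library sizes nor tests. A count of 0 allows up to 3 counts, or 0.0573 to 0.0668 CPM, counting error only. Counts of both strands were filtered with filterByExpr (minimum count 10), scaled by TMM and tested with the robust quasi-likelihood test of edgeR 4.0.16 in R 4.3.3, two-sided, with Benjamini-Hochberg adjustment over 16734 genes. The standard error is the log2 fold change over the square root of F. DESeq2 1.42.0 was an alternative, with RLE factors, scaling without the 20 most abundant genes, no filter beyond 1 count, a mean of 500 or more before the fit, each strand column and leaving out each library. The sum of the strand columns was added after seeing the data. Exon lengths and positions came from GENCODE vM21. The steps were tested on simulated data, under an acceptance rule that was revised after the first one had not been met. Recovery there was incomplete at fold changes of the size seen in the members, so a member that missed the threshold is not shown to be unchanged. The members and gene lists were chosen with earlier results of these data known. Named genes are the members, *Fmo5*, list genes that were called, partner a member or make up a count of 5 or fewer, and the 3 genes closest in pattern to each interferon-inducible member. Further list genes are named where they make up most of a sum or lie on the chromosome of *Fmo5*.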

Additional observations from a re-analysis of the deposited data

How the results depend on the processing

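The number of genes called among all tested was 229 in edgeR with all libraries, 1395 with DESeq2, 1989 with no filter on low counts and 53 with a mean of 500 or more required before the fit, and it ran from 31 to 763 when single libraries were left out. Of the 10 PARP members, 1 was called with all libraries, 2 with DESeq2, 2 with no filter on low counts, 2 with the first strand column, 2 with scaling without the 20 most abundant genes and 0 with a mean of 500 or more before the fit; leaving out single libraries gave 0 to 2. *Parp14* and *Parp10* were higher in Fmo5-/- mice under all 14 alternatives. With a mean of 500 or more before the fit, the scaling was taken over fewer genes and the log2 fold changes of the 9 members left all rose by 0.063 to 0.066, a common shift by which values near 0 turned sign: 0.046 for *Dtx3l*, 0.034 for *Parp9*, 0.019 for *Parp6* and 0.025 for *Parp16*. With the second strand column *Parp6* was at 0.044. When single libraries were left out the log2 fold change ran from -0.105 to 0.048 for *Dtx3l*, from -0.067 to 0.025 for *Parp9*, from -0.090 to 0.079 for *Parp16* and from -0.0050 to 0.30 for *Parp2*. The cause of the turns other than by the common shift was not tested. The labels carry no replicate numbers, so those used here were assigned in the listed order of the libraries and pair no mice. No paired analysis was made. *Parp8* had 45 to 132 counts per library, the fewest among the members, and the part of depth in its standard error was not tested.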
